A study of Mus musculus with 12 samples.

Results

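Gadd45a, Gadd45b, Gadd45g, Cdkn1a, Ddit3, Ddit4, Trib3, Atf3 and Klf6 are genes that mouse cells switch on when DNA is damaged, proteins misfold, nutrients run short or hormones signal stress. They were chosen by symbol from the deposited table of expected counts, with results of these data already in view, so their fold changes and calls are given here as a description and not as support for the choice. The 9 symbols stand on 10 of the 55450 rows, because Ddit3 has 2 rows. Total RNA was sequenced from the brain or the liver of male mice aged 7 to 9 weeks, and the 2 tissues and 2 genotypes make 4 groups with 3 libraries each. The knockout mice lacked both copies of Vaultrc5 (Vaultrc5-/-), a gene for a short non-coding RNA of the vault particle. The controls were Vaultrc5+/+ by protocol and wild type by genotype label, although their titles read flx, and no strain, Cre driver or treatment was given. The comparisons ask whether loss of the vault RNA alters these genes in either tissue, and how the tissues differ in them.

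The 3 Gadd45 proteins are small partners of other proteins: they bind the kinase Map3k4 and so turn on the p38 and JNK pathways, and they also bind PCNA and the mitotic kinase Cdk1. Gadd45b is known as a gene that neurons induce with activity, and Gadd45a as a target of the tumour suppressor Trp53. Cdkn1a, also a Trp53 target, encodes an inhibitor of cyclin-dependent kinases. Ddit3 (the transcription factor known as CHOP), Atf3 and Trib3 belong to the integrated stress response, in which Atf4 is translated when general protein synthesis slows. Ddit4 (REDD1) restrains the growth kinase complex mTORC1 and is induced by glucocorticoids and low oxygen, and Klf6 is a zinc-finger transcription factor of early responses.

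Brain libraries held 14844971 to 18567381 counts, and liver libraries 23247449 to 27155480. Vaultrc5 itself had 33, 39 and 48 counts in the 3 wild-type livers, 4, 1 and 4 in the wild-type brains, and 0 in all 6 knockout libraries, which allows up to 3 counts in each. The tissue labels held against marker genes: the summed level of 4 hepatocyte markers was 51290 to 86750 CPM in liver and at most 1.70 CPM in brain, and that of 5 neuron markers was 3029 to 4115 CPM in brain and 25.8 to 34.6 CPM in liver, where Snap25 and Gad1 were at 0 in the knockout. CPM are counts scaled to library size with TMM factors, on one scale for all 12 libraries. Choroid plexus markers split the brains, with sums of 178, 334 and 471 CPM in wild-type replicates 1 and 3 and knockout replicate 1 and 3.08 to 7.90 CPM in the other 3. The sum of 4 oligodendrocyte markers was 4983 CPM in wild-type brain replicate 3, the highest brain for Gadd45a and Ddit4, and 1444 to 2687 CPM in the other brains; the part of either cell type in the values below was not tested. Where RNA of a whole tissue differs, fewer cells of a type and less RNA per cell cannot be told apart.

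Of the 3 family members, Gadd45g was the one whose liver levels separated by genotype. Gadd45g (ENSMUSG00000021453.2) lies on chromosome 13 at 51846678 to 51848468 on the plus strand (GRCm38). Its level was 16.8, 10.3 and 9.65 CPM in wild-type liver replicates 1, 2 and 3 and 51.0, 20.2 and 30.9 CPM in knockout liver, from 184 to 299 and 358 to 969 counts. Every knockout liver lay above every wild-type liver, and replicate 1 was the highest library in both genotypes. The means were 12.3 ± 3.98 and 34.0 ± 15.7 CPM (SD, n = 3), and the fitted log2 fold change was 1.48 ± 0.39 (SE). Within a replicate number the knockout level was 3.03, 1.97 and 3.20 times the wild-type level. The edgeR quasi-likelihood test did not call it, with an adjusted p of 0.992 over the 15329 genes tested. With the replicate number as a block the log2 fold change was 1.43 ± 0.15 and the edgeR adjusted p was 0.0867, while the DESeq2 Wald test called it with an adjusted p of 0.0193. Over the other edgeR settings with every library kept, the adjusted p was up to 1.00. The DESeq2 test called 10 genes in liver, 0.0652% of those tested, where edgeR called 0 (0%) without the block and 2 with it. Without knockout replicate 1 the log2 fold change was 1.09.

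In brain the level of Gadd45g was 3.90, 3.86 and 4.87 CPM in the wild type and 2.72, 4.68 and 6.06 CPM in the knockout. The knockout brains lay on both sides of the wild type, with replicate 1 the lowest and replicate 3 the highest of all 6. The log2 fold change was 0.08 ± 0.30 (SE), and -0.20 without knockout replicate 3, so its sign rested on that library. The interaction, the liver effect minus the brain effect, was 1.38 ± 0.51 on the log2 scale for Gadd45g and did not pass, with an edgeR adjusted p of 1.00 over 20141 genes.

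Gadd45b (ENSMUSG00000015312.9, chromosome 10, 80930073 to 80932204, plus strand) had the opposite tissue pattern, high in brain and near its detection limit in liver. Its level was 5.36, 6.48 and 5.94 CPM in wild-type brain and 3.81, 7.23 and 9.41 CPM in knockout brain. In liver it was 0.338, 1.05 and 1.00 CPM in the wild type and 0.368, 0.394 and 0.898 CPM in the knockout, from 6 to 21 counts. The groups overlapped in both tissues, and the knockout brains spread over a range of 2.47-fold while the wild-type brains spread over 1.21-fold. The knockout log2 fold change was 0.19 ± 0.32 in brain and -0.52 ± 0.56 in liver (SE). Without knockout replicate 3 the brain value was -0.11, so that library set its sign. In liver the value was -1.06 without knockout replicate 3 and -0.27 without wild-type replicate 2.

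Gadd45a (ENSMUSG00000036390.8, chromosome 6, 67035096 to 67037457, minus strand) was the most even of the 3 across tissues. It stood at 2.52, 2.22 and 3.68 CPM in wild-type brain, 2.52, 2.29 and 2.85 CPM in knockout brain, 2.53, 2.99 and 1.68 CPM in wild-type liver and 2.95, 1.69 and 1.23 CPM in knockout liver. All 4 groups overlapped. The knockout log2 fold change was -0.15 ± 0.25 in brain and -0.29 ± 0.37 in liver (SE). With a library left out, the brain value turned to 0.10 (without wild-type replicate 3), and the liver value ran from -0.69 (without knockout replicate 1) to -0.06 (without knockout replicate 3). Its exons overlap those of E230016M11Rik on the other strand; the kit keeps strand, but the use of strand in counting was not given in the sources used here.

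Per kilobase of exon, the make-up of the family differed between the tissues. In wild-type brain Gadd45b and Gadd45g took similar shares of the summed CPM per kb, 42.1% ± 4.94 and 40.2% ± 1.85 (SD, n = 3), and Gadd45a took 17.7% ± 3.16. In wild-type liver Gadd45g alone took 84.1% ± 5.45 and Gadd45b 4.55% ± 2.80. The Gadd45g share was 39.6% ± 1.65 in knockout brain, where the libraries (37.7% to 40.7%) overlapped the wild-type ones (38.1% to 41.6%), and 94.9% ± 1.27 in knockout liver, where the 3 libraries (93.4% to 95.8%) lay above the 3 wild-type ones (78.8% to 89.7%). The summed level of the family was 9.80 to 16.0 CPM per kb in wild-type liver and 18.4 to 45.4 CPM per kb in knockout liver, against 6.14 to 12.7 CPM per kb over the 6 brains.

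**Figure D1:**
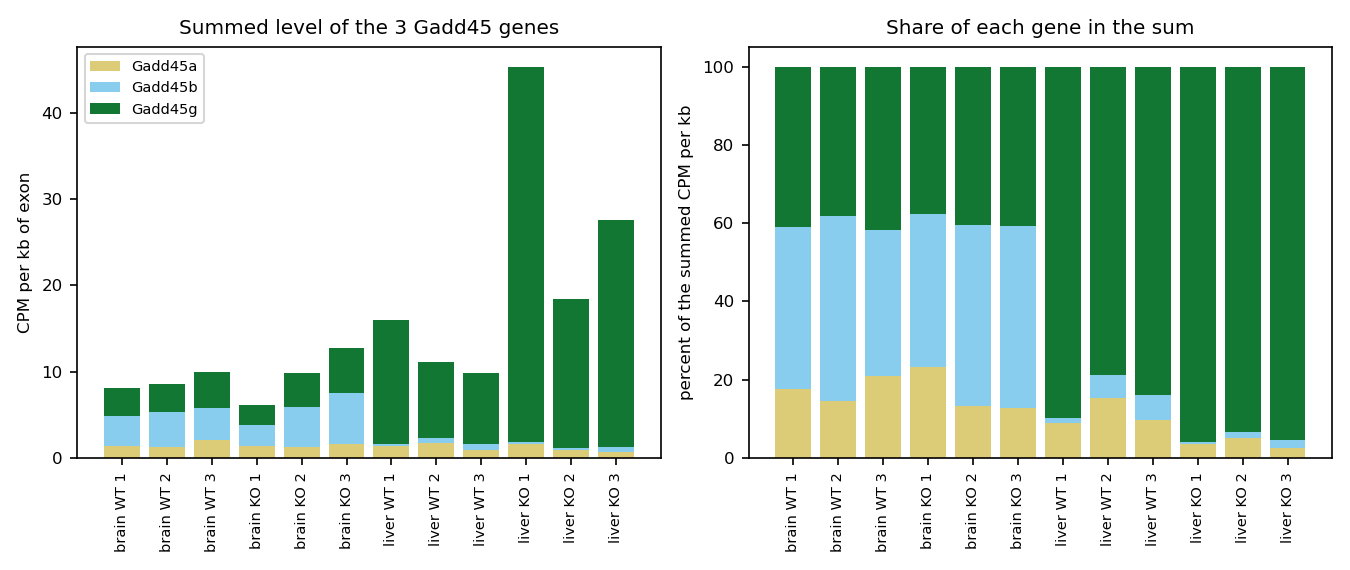
Stacked bars for each of the 12 libraries (WT, wild type; KO, knockout; number, replicate) give the summed CPM per kb of exon of Gadd45a, Gadd45b and Gadd45g on the left and the percent share of each gene on the right. Gadd45g holds 78.8% or more of the sum in every liver, and the knockout livers reach 18.4 to 45.4 CPM per kb.

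The sequences before the start sites of the 3 genes are shown because the family members differ so much between tissues while sharing their protein fold. Each run is the part of the RefSeq promoter window (GRCm38.p6) that ends 50 bases before the RefSeq start, and capitals mark an E-box (CACGTG) or a C/EBP-ATF element (TGATGNAA, here read on the other strand). They are chr6:67037458-67037657 (minus strand), chr10:80929841-80930040 (plus) and chr13:51846425-51846624 (plus). The gene starts printed elsewhere are those of GENCODE and differ from the RefSeq starts, so that the Gadd45a run ends directly before its GENCODE start.
Gadd45a: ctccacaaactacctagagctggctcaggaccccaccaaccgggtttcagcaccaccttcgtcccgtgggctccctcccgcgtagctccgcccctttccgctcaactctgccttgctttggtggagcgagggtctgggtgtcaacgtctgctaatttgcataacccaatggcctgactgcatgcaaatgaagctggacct
Gadd45b: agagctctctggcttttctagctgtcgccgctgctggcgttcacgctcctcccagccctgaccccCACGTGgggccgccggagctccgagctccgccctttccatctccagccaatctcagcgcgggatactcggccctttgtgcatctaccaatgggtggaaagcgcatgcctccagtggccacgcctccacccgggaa
Gadd45g: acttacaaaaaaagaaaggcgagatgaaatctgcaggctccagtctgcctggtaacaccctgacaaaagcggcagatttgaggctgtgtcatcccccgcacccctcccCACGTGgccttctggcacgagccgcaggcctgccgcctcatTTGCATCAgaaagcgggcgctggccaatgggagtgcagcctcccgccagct

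The motifs were searched on both strands of the 300-base windows of all 32851 promoters in the RefSeq table, in which all 9 genes were found (Cdkn1a with 2 windows). No motif contains another. The C/EBP-ATF element was present in 3.97% of all promoters and in 3 of the 9 genes, Gadd45g, Atf3 and Trib3. The E-box was present in 7.15% of all promoters and in 3 genes, Gadd45b, Gadd45g and Klf6. The GC box GGGCGG was present in 35.7% of all promoters and in 7 of the 9 genes, and the cyclic AMP element TGACGTCA in 1.79% and in 0. A match is a description of letters, and no link between a motif and a tissue was tested. The 3 C/EBP-ATF matches are shown with their surroundings, and capitals mark the match, which runs from -101 to -94 before the start of Gadd45g (chr13:51846564-51846591, plus strand), from -110 to -103 before that of Atf3 (chr1:191183426-191183453, minus) and from 15 to 22 after that of Trib3 (chr2:152344029-152344056, minus). The Atf3 piece lies inside the longer gene interval of the GENCODE annotation, outside its exons. The Trib3 positions count from the RefSeq start, and by the GENCODE start given below, which lies farther in, the same match stands before the gene.
Gadd45g: gccgcctcatTTGCATCAgaaagcgggc
Atf3: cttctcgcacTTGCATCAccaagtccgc
Trib3: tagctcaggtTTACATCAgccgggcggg

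Cdkn1a (ENSMUSG00000023067.14, chromosome 17, 29090976 to 29100727, plus strand) was higher in brain and narrowly ordered by genotype there. Its level was 6.60, 7.51 and 7.27 CPM in wild-type brain and 7.52, 8.60 and 8.86 CPM in knockout brain, so the lowest knockout brain and the highest wild-type brain nearly touched. The log2 fold change in brain was 0.21 ± 0.13 (SE). In liver its level was 3.27, 1.64 and 1.63 CPM in the wild type and 3.53, 5.07 and 1.46 CPM in the knockout, with full overlap and a log2 fold change of 0.63 ± 0.49 (SE) that was 0.19 without knockout replicate 2 and 1.04 without wild-type replicate 1. Knockout replicate 2 also had the highest sums of the 4 Kupffer cell markers (342 CPM against 136 to 188 CPM in the other livers) and of the 4 neutrophil markers (4.51 CPM against 0.315 to 1.40 CPM); their part in the Cdkn1a value was not tested. Exons of Cdkn1a overlap AC167363.2 on the other strand, and its count was not whole in 1 library, so with the use of strand in counting not given its reads may be shared.

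Among the genes of the integrated stress response, Trib3 and Atf3 had lower means in knockout than in wild-type liver, with overlapping libraries, and the Ddit3 means were close. Knockout liver replicate 2 was the lowest liver for Trib3 and Atf3. Its hepatocyte marker sum was also the lowest, at 51290 CPM against 63820 to 86750 CPM in the other livers. The part of that library's make-up in these values was not tested. Trib3 (ENSMUSG00000032715.9, chromosome 2, 152337422 to 152344032, minus strand), a pseudokinase that binds AKT and is a target of Atf4 and CHOP, had 11.4, 21.4 and 18.3 CPM in wild-type liver and 9.79, 8.12 and 18.5 CPM in knockout liver. The groups overlapped through knockout replicate 3, and the log2 fold change was -0.48 ± 0.38 (SE), or -0.93 without that library and -0.26 without knockout replicate 2. In brain Trib3 had 2 to 12 counts per library and was too low for the genotype test.

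Atf3 (ENSMUSG00000026628.13, chromosome 1, 191170296 to 191218039, minus strand), a basic leucine zipper transcription factor like CHOP, had 1.18, 1.64 and 1.89 CPM in wild-type liver and 1.11, 0.620 and 1.35 CPM in knockout liver, from 11 to 36 counts. The knockout libraries overlapped the wild type, and the log2 fold change was -0.61 ± 0.36 (SE), with -0.36 when knockout replicate 2 was left out and -0.87 when knockout replicate 3 was. In brain it had 1 to 21 counts, again too low for the genotype test.

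Ddit3 (ENSMUSG00000025408.15, chromosome 10, 127290774 to 127296288, plus strand) had 4.83, 4.76 and 4.23 CPM in wild-type brain, 5.14, 4.50 and 5.33 CPM in knockout brain, 1.86, 3.14 and 5.03 CPM in wild-type liver and 3.16, 4.23 and 2.19 CPM in knockout liver. All its groups overlapped by genotype, and the brain libraries lay within a range of 1.26-fold. The log2 fold change was 0.10 ± 0.15 in brain and -0.06 ± 0.39 in liver (SE). The liver value was -0.35 without wild-type replicate 1 and 0.36 without wild-type replicate 3, so it has no firm sign. The shorter Ddit3 row (ENSMUSG00000116429.1, 105 bases of exon) had at most 1 count in any library. Exons of Ddit3 overlap that row and, on the other strand, Mars and Gm4189, and its counts were not whole in 3 libraries, so the split of reads between rows is uncertain.

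Ddit4 (ENSMUSG00000020108.4, chromosome 10, 59949669 to 59951834, minus strand) varied most between livers. It had 6.36, 3.54 and 9.75 CPM in wild-type liver and 2.68, 6.65 and 17.3 CPM in knockout liver. Replicate 3 was the highest library of each genotype, and the lowest and highest livers were both knockouts. Its highest liver was 6.44 times its lowest; over 13938 genes with a mean of at least 1 CPM in liver the median of that ratio was 1.42. The log2 fold change was 0.46 ± 0.74 (SE), and without knockout replicate 3 it was -0.49. In brain it had 17.3, 15.6 and 26.5 CPM in the wild type and 16.8, 18.8 and 26.1 CPM in the knockout, overlapping, with a log2 fold change of 0.04 ± 0.26 (SE) that was -0.16 when knockout replicate 3 was left out and 0.32 when wild-type replicate 3 was. Replicate 3 was again the highest of each genotype.

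Klf6 (ENSMUSG00000000078.7, chromosome 13, 5861482 to 5870394, plus strand) was the steadiest in liver. It had 12.5, 13.2 and 13.5 CPM in wild-type liver and 19.1, 14.3 and 14.5 CPM in knockout liver, so all 3 knockouts lay above the wild type and replicate 1 stood out. The log2 fold change was 0.29 ± 0.13 (SE), and 0.17 without that library. In brain it had 33.0, 45.6 and 33.1 CPM in the wild type and 33.7, 41.0 and 37.3 CPM in the knockout, overlapping, with a log2 fold change of -0.01 ± 0.15 (SE) that was 0.17 without wild-type replicate 2.

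**Figure D2:**
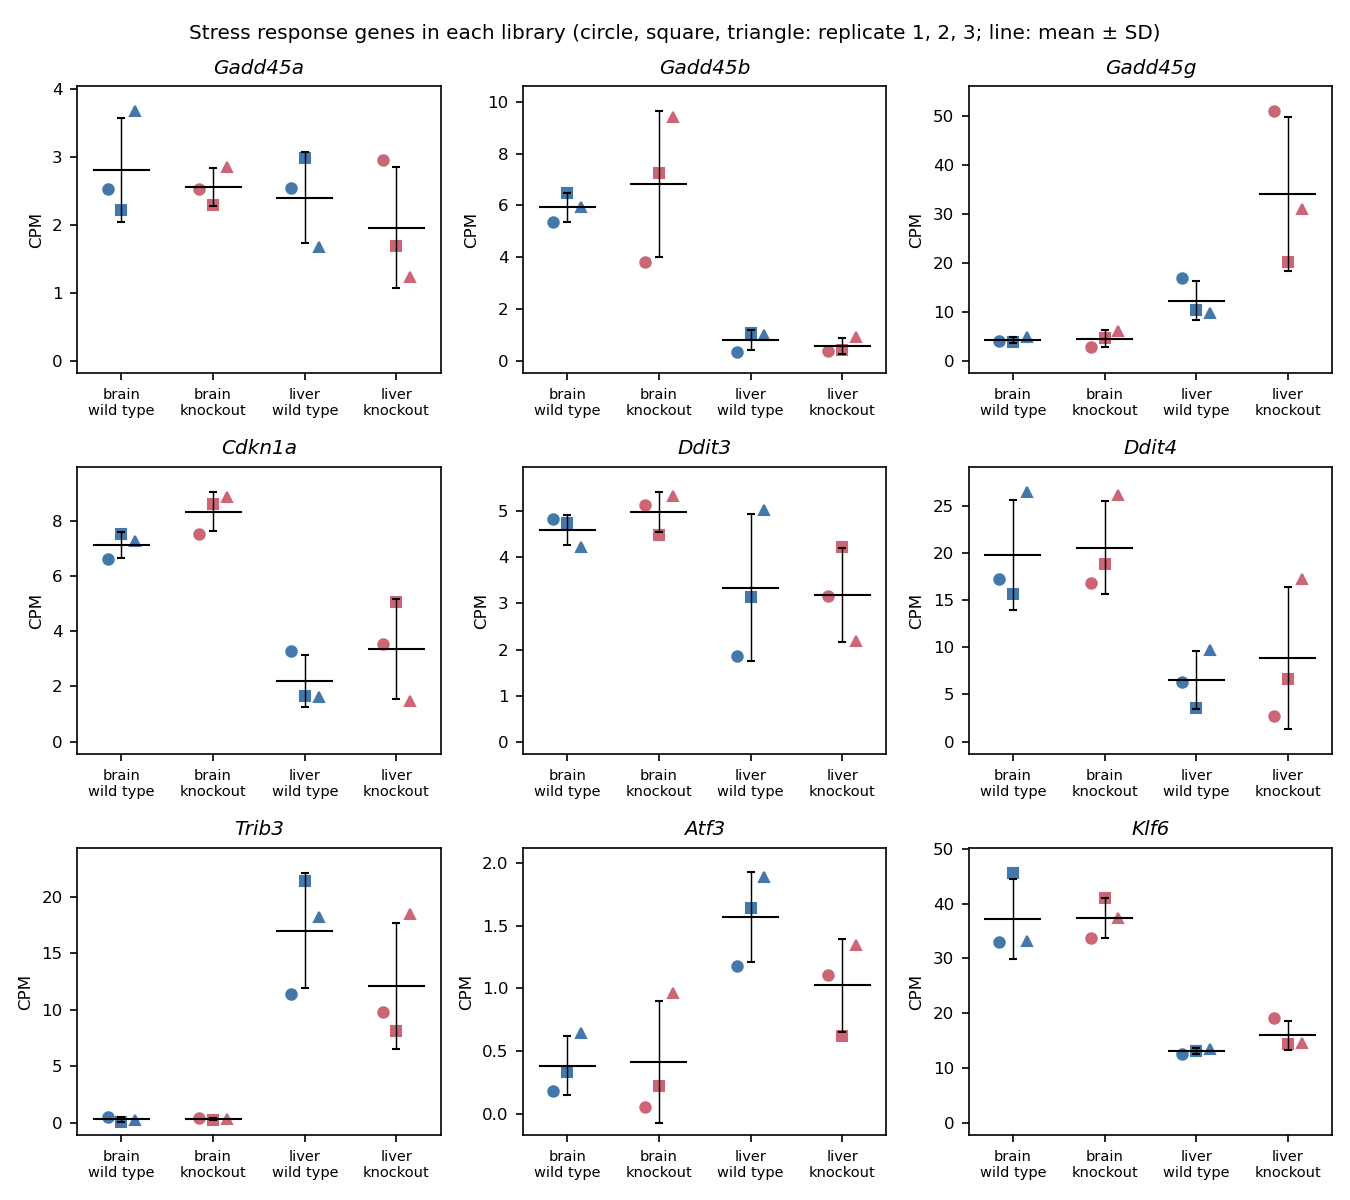
CPM of each of the 9 genes (one panel each, own axis) in every library, by group, with the mean and SD of the 3 libraries. Gadd45g in liver is the panel with the widest gap between genotypes (12.3 against 34.0 CPM), and Trib3 is near 0 in all 6 brains.

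Counted together, 0 of the 7 genes tested in brain and 0 of the 9 tested in liver passed the genotype test, which called 0 of 18075 genes in brain (0%) and 0 of 15329 in liver (0%) by edgeR. At an unadjusted p under 0.05 edgeR had 122 genes in brain and 536 in liver, both less than a share of 0.05 of the genes tested. Counts of 0 called therefore do not show that no gene changed. The DESeq2 Wald test called 0 in brain. In brain 5 of the 7 genes had a log2 fold change above 0 and 2 below, with a median of 0.08 against -0.01 over all genes tested; in liver 4 of 9 were above 0 and 5 below, with a median of -0.06 against 0.01. The median size of the log2 fold change, sign left aside, was 0.10 over the members and 0.10 over all genes in brain, and 0.48 and 0.12 in liver. The members were chosen with results in view, so the sizes are a description. Several also had few counts in liver, with 6 to 21 for Gadd45b, 11 to 36 for Atf3 and 22 to 60 for Gadd45a. In liver 2 of 9, Gadd45g and Klf6, had all knockout libraries above all wild-type ones, as 4.16% of all genes tested did, and 0 had them all below (5.45% of all genes). In brain 1 of 7, Cdkn1a, lay above (2.09% of all genes) and 0 below (2.14%). For the interaction, 0 of 9 members and 0 of 20141 genes passed (0%), with 489 genes at an unadjusted p under 0.05, and the DESeq2 Wald test called 1 gene.

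**Figure D3:**
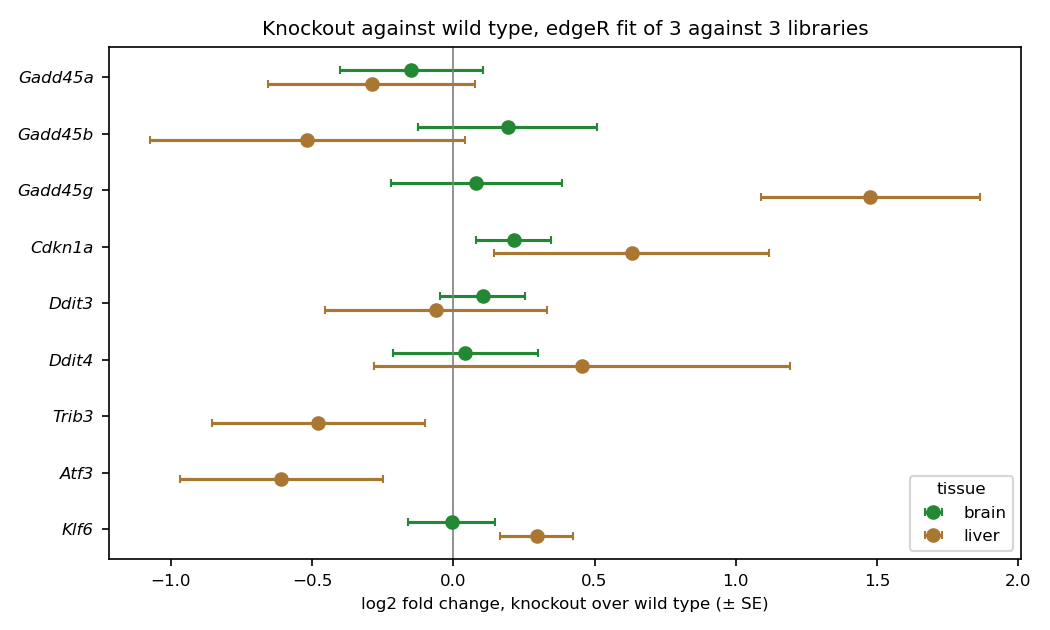
log2 fold change of knockout over wild type with its SE for each gene in brain (green) and liver (brown); Trib3 and Atf3 were too low for the brain test. The Gadd45g value in liver, 1.48, lies farthest from 0, and the others lie between -0.61 and 0.63.

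Some members had their extreme libraries in common with genes of neural activity, stress hormones and the clock, taken from a list for handling and time of day. The genes of that list named here were chosen after their values were seen. In brain, 3 of the 9 members had their highest level in knockout replicate 3 and their lowest in knockout replicate 1. They were Gadd45b, Gadd45g and Atf3. The same held for 11 of the 16 genes of the list. Of 15983 genes with a mean of at least 1 CPM in brain, 3.22% had that pattern. Atf3 lies outside those genes, because its brain mean was below 1 CPM. Its lowest brain held 1 count, under the floor of 3 counts, and the next held 4. Its place in the pattern is therefore uncertain. Fos, the immediate early gene of neural activity, had 26.5, 38.4 and 31.5 CPM in wild-type brain and 14.3, 35.8 and 59.2 CPM in knockout brain. Nr4a1, another early gene, had 53.2, 98.0 and 82.5 CPM in the wild type and 31.7, 123 and 166 CPM in the knockout. Both genes were taken from those with the pattern, so their order of the 3 knockout brains, the same as for Gadd45b, was fixed by the choice. In liver, 1 of the 9 members, Ddit4, had its 2 highest levels in the replicates 3. So did 7 of the 16 genes, the clock genes Per1, Per2, Dbp and Ciart and the glucocorticoid-induced Tsc22d3, Sgk1 and Fkbp5. For 2 of the 9 members, Gadd45a and Cdkn1a, the replicates 3 were the 2 lowest, as they were for Junb and Arntl of the 16. The margins of the 2 members were small. Gadd45a had 1.678 CPM in wild-type replicate 3 and 1.691 CPM in knockout replicate 2. Cdkn1a had 1.625 CPM in wild-type replicate 3 and 1.645 CPM in wild-type replicate 2. Of 13938 genes with a mean of at least 1 CPM in liver, 11.1% had their 2 highest levels in the replicates 3 and 13.9% their 2 lowest. The members' counts in liver thus stand near the background. Per1 had 14.9, 35.7 and 86.4 CPM in wild-type liver and 13.0, 18.4 and 94.7 CPM in knockout liver, and Arntl, a clock gene of the opposite phase, was lowest there, at 3.30 and 3.82 CPM against 11.6 to 19.5 CPM in the others. No time of day or order of killing was given, 0 of the 16 genes passed either genotype test (edgeR), and their part in the Gadd45b, Gadd45g and Ddit4 values was not tested.

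**Figure D4:**
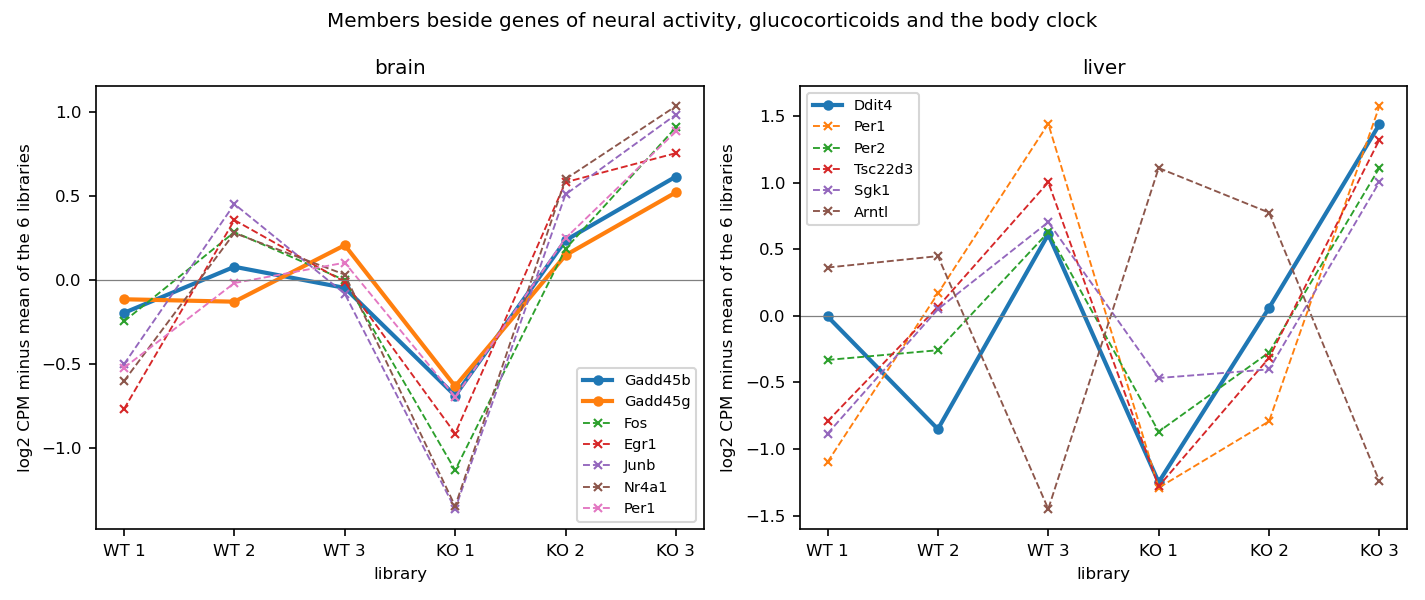
log2 CPM minus the mean of the 6 libraries, for Gadd45b and Gadd45g with 5 activity and clock genes in brain (left) and for Ddit4 with 5 clock and glucocorticoid genes in liver (right). Lines only join a gene's points, since libraries have no order. Knockout brain 3 is high and knockout brain 1 low in all 7 genes, and the liver replicates 3 are high except for Arntl. The genes beside the members were chosen after their values were seen.

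Between the tissues, 7 of the 9 genes differed in the wild type and 5 in the knockout by edgeR, where the test called 78.6% and 78.7% of all genes, so the members' counts stand near or below the background. By direction, 4 members were higher in brain and 3 in liver in the wild type (43.9% and 34.7% of all genes), and 3 and 2 in the knockout (43.5% and 35.2%). Klf6, Gadd45b and Cdkn1a were higher in brain, and Gadd45g and Trib3 higher in liver, in both genotypes; Ddit4 was higher in brain and Atf3 higher in liver in the wild type. Ddit3 and Gadd45a did not pass in either genotype. Trib3 differed most, with 17.0 ± 5.11 CPM in wild-type liver and 0.290 ± 0.227 CPM in wild-type brain (SD, n = 3), a 58.2-fold difference. Its log2 fold change of brain over liver was -5.86 ± 0.49 in the wild type and -5.27 ± 0.46 in the knockout (SE), and without wild-type brain replicate 1 the former was -6.63. Gadd45b was 7.39-fold higher in wild-type brain than liver (log2 2.89 ± 0.37) and 12.1-fold higher in the knockout (log2 3.60 ± 0.48). Gadd45g was 2.89-fold higher in wild-type liver than brain (log2 -1.53 ± 0.25) and 7.64-fold higher in knockout liver (log2 -2.93 ± 0.41). Whether the tissue difference itself differed by genotype is the interaction, fitted on all 12 libraries and signed as the liver effect minus the brain effect; it was 1.38 ± 0.51 for Gadd45g and -0.73 ± 0.64 for Gadd45b, and neither passed.

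Cdkn1a was 3.29-fold higher in brain in the wild type (log2 1.72 ± 0.30) and 2.46-fold in the knockout (1.30 ± 0.39), where it lost its call without knockout brain replicate 3 (log2 1.24, edgeR adjusted p = 0.0510). Klf6 was 2.86-fold and 2.32-fold higher in brain (log2 1.52 ± 0.15 and 1.21 ± 0.15). For Ddit4 the log2 values were 1.60 ± 0.37 in the wild type and 1.20 ± 0.58 in the knockout; the latter passed when knockout liver replicate 3 was left out (log2 2.11, adjusted p = 0.00438, edgeR; 0.0154 to 0.216 over the edgeR settings with every library). Atf3 had -2.02 ± 0.47 and -1.31 ± 0.79, and passed in the knockout without knockout brain replicate 3 (log2 -2.85); in the wild type its value was -2.63 without wild-type brain replicate 3. Ddit3 (0.47 ± 0.34 and 0.63 ± 0.27) passed in the wild type without wild-type liver replicate 3 (log2 0.87) and in the knockout without knockout liver replicate 2 (log2 0.86). Gadd45a had 0.23 ± 0.32 and 0.37 ± 0.35; the former was -0.06 without wild-type brain replicate 3, and the latter ran from 0.10 (without knockout liver replicate 3) to 0.76 (without knockout liver replicate 1). Of all genes, 8275 were called higher in brain and 6542 higher in liver among wild types, against 8178 and 6611 among knockouts. With library totals in place of TMM the median of all genes moved by 0.84 and 0.88 on the log2 scale towards brain, the splits became 11635 to 3997 and 11668 to 3871, all 9 members were called in the wild type and all but Atf3 in the knockout, and no member changed direction.

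**Figure D5:**
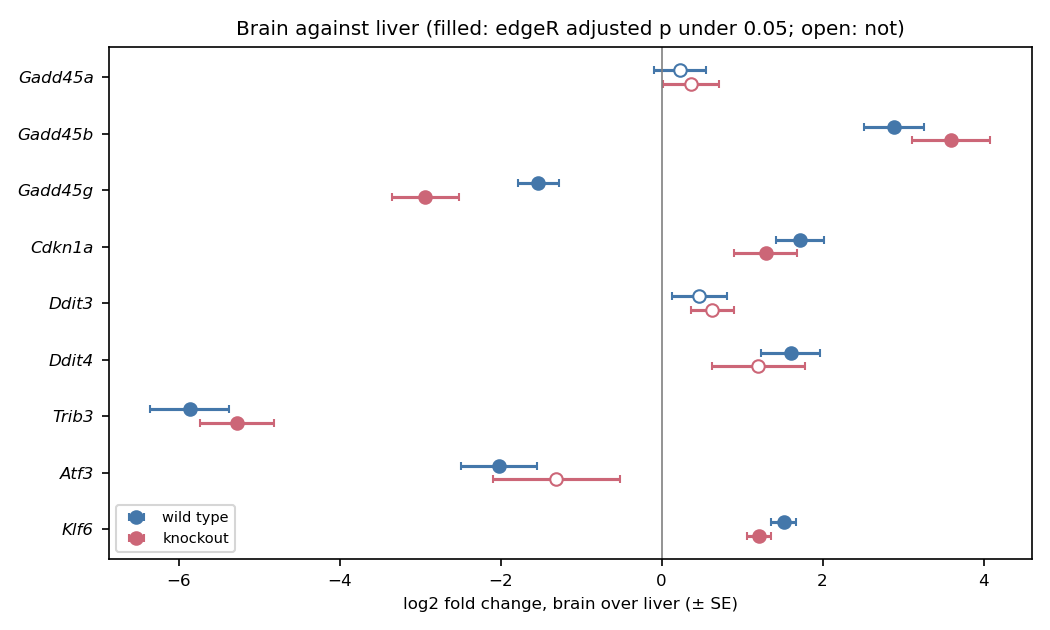
log2 fold change of brain over liver with its SE in the wild type (blue) and the knockout (red); filled points passed the edgeR test. Trib3 lies at -5.86 and -5.27, Gadd45b at 2.89 and 3.60, and Gadd45g at -1.53 and -2.93.

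Ranked by mean CPM per kb of exon, the order in wild-type brain was Ddit4 (11.3 ± 3.34), Klf6 (8.48 ± 1.66), Gadd45b (3.73 ± 0.35), Gadd45g (3.59 ± 0.49), Ddit3 (2.69 ± 0.19), Cdkn1a (2.01 ± 0.13), Gadd45a (1.59 ± 0.44), Atf3 (0.177 ± 0.110) and Trib3 (0.137 ± 0.107; SD, n = 3). Neighbours closer than the larger of their SDs were Ddit4 and Klf6, Gadd45b and Gadd45g, Cdkn1a and Gadd45a, and Atf3 and Trib3. In wild-type liver Gadd45g led (10.4 ± 3.40), followed by Trib3 (8.02 ± 2.40), Ddit4 (3.73 ± 1.77), Klf6 (2.98 ± 0.12), Ddit3 (1.95 ± 0.93), Gadd45a (1.36 ± 0.38), Atf3 (0.730 ± 0.166), Cdkn1a (0.613 ± 0.265) and Gadd45b (0.499 ± 0.249). Gadd45g and Trib3 lay within their SDs of each other there, and so did Ddit4 and Klf6, Ddit3 and Gadd45a, and the last 3. In knockout liver Gadd45g stood at 29.0 ± 13.3 and Trib3 at 5.71 ± 2.63 CPM per kb.

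The other genes of these pathways were taken from lists of their known members. By edgeR, 0 genes of any list passed a genotype test or the interaction, so none is named for those. The tissue counts of the lists are to be read against the 43.9% of all genes tested that were called higher in wild-type brain and the 34.7% called higher in wild-type liver; no list was tested against that background. In the Trp53 list, 8 of the 26 genes tested were higher in wild-type brain and 10 higher in wild-type liver; Zmat3, an RNA-binding Trp53 target, had 126 ± 17.9 CPM in brain and 15.9 ± 0.70 CPM in liver, and Perp, a membrane protein, had 2.70 ± 0.20 and 98.0 ± 8.57 CPM (SD, n = 3). Plk2 was also higher in brain and Rps27l in liver. In the integrated stress response list, 10 of 29 were higher in brain and 13 in liver. Psat1, of serine synthesis, had 41.3 ± 10.3 CPM in brain and 1.90 ± 1.19 CPM in liver, and Slc7a1, an amino acid transporter, was higher in brain as well. The transcription factor Cebpa had 3.83 ± 0.95 CPM in brain and 435 ± 20.9 CPM in liver, and Cebpb had 3.31 ± 1.15 and 113 ± 30.1 CPM.

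Among 18 partners of the Gadd45 proteins, 6 were higher in wild-type brain and 5 in wild-type liver, again beside 43.9% and 34.7% of all genes, which hold for each list that follows. Tet1, an enzyme that oxidises methylated cytosine, had 35.4 ± 11.4 CPM in brain and 1.09 ± 0.36 CPM in liver, and the p38 kinase gene Mapk11 was also higher in brain; Map2k3, the kinase that activates p38, had 5.87 ± 0.84 and 54.1 ± 5.12 CPM, and Apex1 was also higher in liver (SD, n = 3). Among 14 partners of Cdkn1a, 5 were higher in brain (Ccne1 and Ccne2 among them) and 7 in liver, with Cdk6 at 4.66 ± 1.39 CPM in brain and 93.7 ± 10.2 CPM in liver and Cdk2 at 1.33 ± 0.53 and 15.2 ± 0.50 CPM. Among 15 genes around Ddit4 and mTORC1, 5 were higher in brain (Sesn3 and Mlst8 among them) and 4 in liver; the mTOR inhibitor gene Deptor had 30.4 ± 5.95 CPM in brain and 499 ± 38.8 CPM in liver, and Eif4ebp1 had 1.45 ± 0.48 and 30.8 ± 4.56 CPM. Among 20 relatives of the members that were tested, 8 were higher in brain and 11 in liver: Trib2, a relative of Trib3, had 25.9 ± 2.72 CPM in brain and 3.24 ± 0.54 CPM in liver, Klf5 was higher in brain, and Klf15 (10.3 ± 1.18 and 190 ± 46.2 CPM) and Klf3 were higher in liver. The median log2 fold changes of brain over liver in the wild type were -0.08, -0.12, 0.22, -0.65, 0.02 and -0.61 for these 6 lists in the order given, against 0.21 over all genes tested.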

How the data were processed

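The members and gene lists were chosen with earlier results of these data known. Expected counts per gene and library were deposited by the authors, not normalized and not pooled; the submitters' processing notes name cutadapt, STAR and the mm10 build, and the counting tool is not given in the sources used here. Per the labels' protocols, rRNA-depleted stranded libraries were sequenced single-end. Identifiers matched GENCODE M21 (GRCm38), which gave coordinates and exon lengths. The labels do not say that the libraries of a group come from separate animals; p-values then measure the spread between these libraries, which may be technical.

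Counts were rounded and tested with the edgeR 4.0.16 quasi-likelihood test (R 4.3.3; TMM; filterByExpr, minimum count 10 and total 15; robust), with Benjamini-Hochberg adjustment over all genes tested and a threshold of 0.05. Each comparison used its own 6 libraries and the interaction all 12. SE is the log2 fold change over the square root of F. The fits were tested on simulated data. Of 2-fold changes put into well-counted genes, they recovered 57% for genotype in brain, 86% for genotype in liver and 22% for the interaction. Floors of 3 counts cover counting error only. Replicate pairs differed by more than sampling noise, so each library counts once.

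Wild-type and knockout libraries share numbers 1 to 3 in their titles, and these numbers define the block. The labels do not say that the numbers mark a litter, batch or animal. Deviations of same-numbered livers from their group means correlated at 0.372, 0.413 and 0.493. Such values do not show what the numbers stand for. All printed fits are nonetheless without the block, except where a value is said to have it.

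Named genes were all 9 members and, per list, called genes with the smallest p for genotype, and for tissue the 2 largest changes in each direction called in both genotypes with a mean of at least 1 CPM in both tissues. Other handling and time-of-day genes named for their library pattern were chosen after their values were seen. Alternatives were DESeq2 size factors, library totals, the DESeq2 1.42.0 Wald test, no filter, a filter at a mean of 1 CPM, the replicate block, all 12 libraries in one fit and each library left out.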

Additional observations from a re-analysis of the deposited data

How the results depend on the processing

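In liver, the number of genes called for genotype was 0 by edgeR; it was 10 with DESeq2's Wald test (1 of them a member, Gadd45g), 4 with no filter on low counts, 2 with the replicate block and 0 to 1 with a library left out (1 without wild-type replicate 2). For the interaction it was 0, against 1 with DESeq2's Wald test and 2 with the replicate block. The number of members called between knockout brain and liver was 5, against 8 with library totals, where those higher in brain went from 3 to 6; Ddit4 also passed there with the replicate block (edgeR adjusted p = 0.0164) and with DESeq2 (adjusted p = 0.0493). Every other total of members or genes called at the adjusted threshold, summed over both directions, stayed in all 5 comparisons within 1.5 times its value under the alternatives run, but library totals lowered the number called higher in liver from 6542 to 3997 (wild type) and from 6611 to 3871 (knockout). Genes at an unadjusted p under 0.05 ranged from 78 to 615 in brain, 384 to 1136 in liver and 384 to 909 for the interaction. In brain the deviations of same-numbered libraries correlated at 0.761, 0.660 and -0.0311 for numbers 1, 2 and 3, and the block called 0 genes. Of 599 refitted log2 fold changes of members, 560 moved by less than their SE, 18 moved with library totals in the tissue comparisons and 21 with a library left out; 0 called values changed sign. Depth limits Gadd45b in liver and Trib3 and Atf3 in brain.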

Other observations

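The unfolded protein response list, genes of endoplasmic reticulum chaperones and their sensors, lay lower in brain throughout. By edgeR, all 22 genes were called lower in wild-type brain than in wild-type liver and 21 in the knockout, where 34.7% and 35.2% of all genes tested were called lower, with a median log2 fold change of -2.44 and -2.59 against 0.21 over all genes tested in each. Herpud1, of the degradation machinery of the endoplasmic reticulum, had 22.7 ± 2.05 CPM in wild-type brain and 355 ± 148 CPM in wild-type liver, and Ern1, a sensor, had 13.9 ± 1.29 and 179 ± 26.0 CPM (SD, n = 3). Between the genotypes in liver, 20 of the 22 genes had a log2 fold change above 0 with a median of 0.18 (0.01 over all genes). In brain 19 of the 22 did, with a median of 0.06 (-0.01 over all genes). By edgeR, 0 of the 22 passed either genotype test or the interaction. The direction of the list was not tested against all genes.

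Of the handling and time-of-day genes, 5 of 16 were higher in wild-type brain than liver and 5 were lower by edgeR, beside 43.9% and 34.7% of all genes tested. Fos had 32.1 ± 5.95 CPM in brain and 2.24 ± 1.78 CPM in liver and Fosb 15.5 ± 4.82 and 0.853 ± 0.725 CPM, while Tsc22d3 had 33.6 ± 11.0 and 115 ± 69.0 CPM and Ier2 6.85 ± 1.05 and 19.8 ± 3.95 CPM (SD, n = 3).

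The genes whose deviations from their group means were most like those of a member were sought over 8398 genes with a mean of at least 5 CPM in both tissues, with Pearson r of log2(CPM + 1) over the 12 libraries. They were Park7 (r = 0.938) and Vars2 (0.923) for Gadd45g, Rps15 (0.920) and Phf13 (0.907) for Gadd45b, Zfyve1 (0.937) and Nop10 (0.930) for Gadd45a, and Dnajb14 (0.938) and Elp3 (0.935) for Cdkn1a. Within a tissue, r for Cdkn1a and Dnajb14 was 0.544 over the brains and 0.963 over the livers. For the other pairs it was 0.758 or more in each tissue. The points share library depth and group means, and these are the highest of many values, so they are a description.

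The sum of the 4 lymphocyte markers was 2.36 to 3.04 CPM in wild-type liver and 3.14 to 4.28 CPM in knockout liver. That of the 4 neutrophil markers was 0.727 to 0.974 CPM in wild-type brain and 2.03, 7.98 and 1.10 CPM in knockout brain replicates 1, 2 and 3. Neither overlapped by genotype. Both lists overlapped in their other tissue, and all other cell type lists overlapped in both tissues. How often such sums separate without a genotype effect was not worked out. Their part in the members' values was not tested.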
